A study of Mus musculus with 6 samples.

Results

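The MHC class II genes of the mouse were followed in endothelial cells of the lung, sorted by flow cytometry from wild-type mice, with 3 libraries from animals aged 18 months, labelled Aged, and 3 from animals aged 8 months, labelled mAdu. The 10 genes were taken by symbol from the 24520 Ensembl gene identifiers of the deposited table. They are the class II chains H2-Aa, H2-Ab1 and H2-Eb1, the invariant chain Cd74, the peptide exchange factor chains H2-DMa, H2-DMb1 and H2-DMb2, the chains H2-Oa and H2-Ob of its inhibitor, and the transactivator Ciita. Values are TPM, which are relative to transcript length and to the sum of a library, so levels of different genes can be set side by side. The study as a whole is about endothelial enhancers and the DNA methylation laid down by DNMT3A, and these 6 libraries compare the RNA of the 2 ages.

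Per the labels, both ages are wild type, and neither group carries an allele or received an agent. The labels give no strain, sex, sort markers or batch, and they do not say whether each library is a mouse of its own. All p-values therefore reflect how these libraries spread, which may be technical. TPM keep no read depth, so no counting error is given. The columns summed to between 869315 and 876126 TPM. In bulk RNA, fewer cells of a type and less RNA per cell cannot be told apart.

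MHC class II molecules display peptides taken up from outside a cell to CD4 T cells. An alpha and a beta chain pair in the endoplasmic reticulum around the invariant chain, which blocks the groove and leads the complex to the late endosome. There proteases trim the invariant chain, and the DM heterodimer exchanges the remaining fragment for peptides, while the DO heterodimer restrains DM. CIITA does not bind DNA itself: it is recruited to a set of promoter boxes, called X and Y, by a complex of RFX, CREB and NF-Y proteins. Dendritic cells, macrophages and B cells express class II molecules constitutively, alveolar type 2 cells of the lung do so too, and endothelial cells can be induced to by interferon gamma.

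The promoter stretches around the Y box are shown because this box stands both in front of genes whose values differed between the ages without overlap and in front of genes whose values overlapped. RefSeq promoters on GRCm38.p6, which run from 250 bases before the transcription start to 50 after it, were found for 7 of the 10 genes. The letters searched, on both strands, were TGATTGG, the core of the Y box bound by NF-Y, and, for the X box bound by RFX, AGNAAC followed after any 2 bases by ATG, and these do not overlap in any stretch shown. Capitals mark the matches, and each stretch reads 5′ to 3′ along the gene from 50 bases before the Y letters to 10 bases after them.
H2-Aa, chr17:34287857-34287923, minus strand: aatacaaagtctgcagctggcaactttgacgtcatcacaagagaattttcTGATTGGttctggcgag
H2-Eb1, chr17:34305756-34305822, plus strand: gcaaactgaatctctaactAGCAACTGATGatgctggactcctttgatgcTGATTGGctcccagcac
H2-DMb1, chr17:34153078-34153144, plus strand: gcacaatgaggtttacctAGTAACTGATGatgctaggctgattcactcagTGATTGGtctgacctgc
H2-DMb2, chr17:34145107-34145173, plus strand: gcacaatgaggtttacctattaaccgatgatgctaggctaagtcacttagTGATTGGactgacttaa
H2-Ob, chr17:34238796-34238862, plus strand: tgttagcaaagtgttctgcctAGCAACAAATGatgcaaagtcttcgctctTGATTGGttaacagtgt
H2-Oa, chr17:34092284-34092350, plus strand: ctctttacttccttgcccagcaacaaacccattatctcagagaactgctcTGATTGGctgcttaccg
H2-Eb2, chr17:34325523-34325589, plus strand: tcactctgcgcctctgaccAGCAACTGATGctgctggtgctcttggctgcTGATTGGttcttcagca

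The Y letters stood in the promoters of 6 of the 7 genes, on the strand of the gene in each, against 7.82% of all 32851 promoters in the table. They began at position -50 in H2-Aa, -61 in H2-Eb1, -63 in H2-DMb1, -92 in H2-DMb2, -59 in H2-Ob and -45 in H2-Oa, counted from the transcription start at 0. The X letters stood in 3 of the 7, H2-Eb1, H2-DMb1 and H2-Ob, against 0.895% of all promoters, and there they ended 20, 21 and 18 bases before the Y letters. Of all promoters, 0.0731% held both. Neither set of letters was found in the 2 promoters listed for H2-DMa. H2-Eb2, a class II beta gene that is not among the 10, held both letters 20 bases apart. It lay at 0.0734, 0.925 and 0.161 TPM in the Aged libraries against 0.315, 0.462 and 0.160 TPM in the mAdu libraries. Both letters therefore stood in front of genes of very different levels, and the letters were chosen with these promoters in view.

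The chains of the classical class II molecules lay higher in every 18-month library than in any 8-month library. H2-Ab1 (ENSMUSG00000073421), the beta chain of the I-A molecule, lay at 897, 1781 and 1044 TPM in the Aged libraries against 461, 411 and 535 TPM in the mAdu libraries. H2-Aa (ENSMUSG00000036594), its alpha chain, lay at 1273, 3060.0 and 1779 TPM in the Aged libraries against 762, 532 and 796 TPM in the mAdu libraries. H2-Eb1 (ENSMUSG00000060586), the beta chain of the I-E molecule, lay at 494, 1079 and 636 TPM in the Aged libraries against 259, 188 and 285 TPM in the mAdu libraries. In all 3 genes the second 18-month library was highest and the second 8-month library lowest. The means were 2.65-fold higher for H2-Ab1, 2.92-fold for H2-Aa and 3.02-fold for H2-Eb1. On the log2(TPM + 1) scale, the differences between 18 and 8 months were 1.35 ± 0.24 (SE) for H2-Ab1, 1.47 ± 0.31 for H2-Aa and 1.53 ± 0.28 for H2-Eb1. None passed the threshold of 0.05 (limma adjusted p = 0.122, 0.145 and 0.126, adjusted over the 12748 genes that averaged 1 TPM or more). The 3 genes lie near each other on chromosome 17 of GRCm38, H2-Ab1 at 34257689 to 34269419 and H2-Eb1 at 34305867 to 34316674 on the plus strand, and H2-Aa at 34282744 to 34287823 on the minus strand. The I-E alpha chain gene, H2-Ea, was sought by symbol but not found among the deposited identifiers, so it could not be analysed here.

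Cd74 (ENSMUSG00000024610, chromosome 18, 60803848 to 60812652, plus strand), the invariant chain, was the most abundant of the 10 transcripts in each library. It lay at 6762, 17910 and 10253 TPM in the Aged libraries against 3259, 1533 and 3027 TPM in the mAdu libraries. The lowest 18-month library thus lay above the highest 8-month library. By level, Cd74 took place 7, 2 and 3 among the identifiers of the 18-month libraries and place 22, 59 and 24 in the 8-month libraries. The mean was 4.47-fold higher at 18 months, with 11642 ± 5702 TPM in the Aged against 2606 ± 937 TPM in the mAdu libraries (SD, n = 3 each). The log2 difference of 2.12 (95% interval 1.20 to 3.04) did not pass (limma adjusted p = 0.128).

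**Figure D1:**
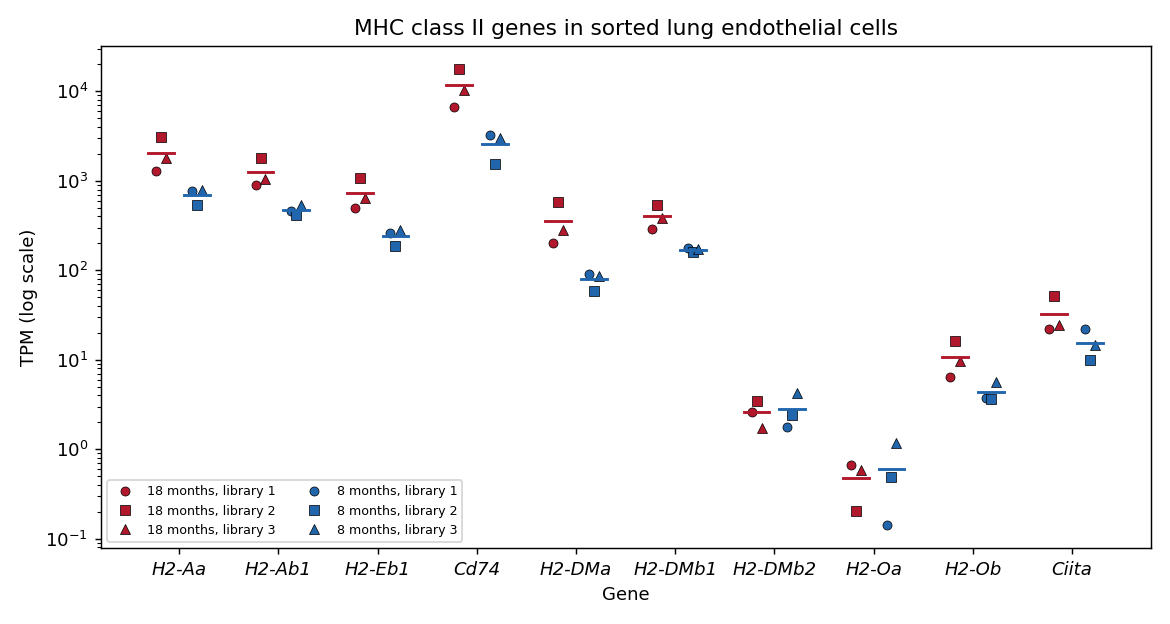
TPM of the 10 MHC class II genes on a log scale, 18-month libraries in red on the left and 8-month libraries in blue on the right of each gene. Each point is 1 library and the horizontal bars are means of 3 libraries. In 8 genes all red points lie above all blue points, by 22.3 against 21.9 TPM at the nearest in Ciita, while H2-DMb2 and H2-Oa overlap.

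Of the DM chains, H2-DMa and H2-DMb1 lay higher at 18 months and H2-DMb2 did not. H2-DMa (ENSMUSG00000037649, chromosome 17, 34119541 to 34139101), the alpha chain of DM, lay at 203, 578 and 280 TPM in the Aged libraries against 91.6, 59.5 and 86.1 TPM in the mAdu libraries. Its mean was 4.48-fold higher, as large a fold as that of Cd74, with a log2 difference of 2.03 ± 0.36 (SE) (limma adjusted p = 0.119). H2-DMb1 (ENSMUSG00000079547, 34153072 to 34160230), a beta chain of DM, lay at 290, 539 and 387 TPM in the Aged libraries against 176, 159 and 173 TPM in the mAdu libraries. The mAdu libraries of H2-DMb1 lay close together, with 405 ± 126 TPM in the Aged and 169 ± 9.33 TPM in the mAdu libraries (SD, n = 3 each). Its log2 difference was 1.21 ± 0.20 (SE) (limma adjusted p = 0.118), the smallest adjusted p among the 10 genes.

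H2-DMb2 (ENSMUSG00000037548, 34143307 to 34151555), the second beta chain gene, which lies next to H2-DMb1 on the same strand, had low values at both ages. It lay at 2.64, 3.43 and 1.71 TPM in the Aged libraries against 1.76, 2.43 and 4.28 TPM in the mAdu libraries, so the ages overlapped. The log2 difference was -0.07, with 95% bounds of -0.74 and 0.61 (limma adjusted p = 0.954), and it turned positive without the third 18-month library (0.12), without the third 8-month library (0.19) and with median-of-ratios scaling (0.0036). Of the 31-base sequences in annotated H2-DMb2 transcripts, 29.7% also occurred in those of H2-DMb1. Of those in H2-DMb1 transcripts, 31.4% also occurred in those of H2-DMb2, so the way reads were shared out between the 2 genes is uncertain. H2-DMa transcripts shared 9.23% of their 31-base sequences with the neighbouring Brd2, which lay at 104, 72.5 and 69.9 TPM in the Aged libraries against 85.6, 86.4 and 75.8 TPM in the mAdu libraries. The part of shared sequence in the H2-DMa values was not tested.

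The DO chains were low. H2-Ob (ENSMUSG00000041538, chromosome 17, 34238903 to 34254414), the beta chain of DO, lay at 6.39, 16.2 and 9.71 TPM in the Aged libraries against 3.71, 3.63 and 5.67 TPM in the mAdu libraries. The ages did not overlap, and the second 18-month library again was highest. The log2 difference was 1.08 ± 0.31 (SE) (limma adjusted p = 0.204). H2-Oa (ENSMUSG00000024334, 34092340 to 34095234), the alpha chain with which H2-Ob pairs, lay at 0.658, 0.204 and 0.584 TPM in the Aged libraries against 0.141, 0.487 and 1.16 TPM in the mAdu libraries. It stayed under the mean of 1 TPM needed for the test, and its lowest 18-month value fell in the library where H2-Ob was highest. Of the 31-base sequences in H2-Oa transcripts, 18.3% also occurred in those of BC051537, which was listed at 0 in 5 of the 6 libraries.

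Ciita (ENSMUSG00000022504, chromosome 16, 10480059 to 10528418, plus strand), the transactivator of the class II genes, lay at 22.3, 51.3 and 24.8 TPM in the Aged libraries against 21.9, 9.95 and 14.5 TPM in the mAdu libraries. The first library of each age lay nearly level, so the ages were only just apart. Its mean was 2.12-fold higher at 18 months, and its log2 difference of 1.004 had 95% bounds of 0.18 and 1.83 (limma adjusted p = 0.287). The difference was 0.64 without the second 18-month library. The table gives 1 value per gene, so the promoters from which Ciita is known to be transcribed were not told apart.

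Of the 10 genes, 9 averaged 1 TPM or more and were tested, and 0 passed at an adjusted p of 0.05 by limma, as against 0.0235% of all tested genes, or 3 genes. At an unadjusted p under 0.05, 8 of the 9 were higher at 18 months, against 3.45% of all tested genes. The libraries of the 2 ages did not overlap, with 18 months higher, in the same 8 genes, against 4.48% of all tested genes. The median log2 difference of the 9 tested genes was 1.35, beside -0.08 over all genes tested. A log2 difference above 1 was found in 8 of the 9, against 1.1% of all tested genes. When limma weighted the libraries by their spread, 5 of the 9 passed, namely H2-DMb1, H2-DMa, Cd74, H2-Eb1 and H2-Ab1, at adjusted p from 0.029 to 0.0472, as did 94 genes in all.

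In sum, the 10 genes took 9951, 25017 and 14416 TPM in the Aged libraries against 5036, 2898 and 4928 TPM in the mAdu libraries. That was 1.14%, 2.86% and 1.65% of the table at 18 months and 0.575%, 0.333% and 0.563% at 8 months. Among the 18-month libraries, the highest lay above the lowest by 1.86-fold in H2-DMb1 and by 2.85-fold in H2-DMa, with the other non-overlapping genes between. Among the 8-month libraries, this span was 1.11-fold in H2-DMb1 and 2.20-fold in Ciita. In 8 genes the second 18-month library was the highest of the 6, and without that library the median log2 difference was 1.05. The genes also kept step with each other. Over the 6 libraries, the Pearson correlation of each gene with the mean profile of the other tested members lay at 0.896 for Ciita and between 0.960 and 0.990 for the other non-overlapping genes, but at 0.0992 for H2-DMb2. These values describe 6 shared libraries of 2 ages, so they partly repeat the difference between the ages. Correlations within an age are not given.

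Ratios within a library do not depend on how that library was scaled, and 12 ratios among the members were compared. The ratios between the chain genes overlapped between the ages. The ratio of H2-Aa to H2-Ab1 was 1.42, 1.72 and 1.70 in the Aged libraries against 1.65, 1.29 and 1.49 in the mAdu libraries, a log2 difference of 0.13 ± 0.14 (SE) (exact permutation p = 0.5). The ratio of H2-Eb1 to H2-Ab1 was 0.550, 0.606 and 0.609 in the Aged libraries against 0.563, 0.459 and 0.533 in the mAdu libraries, a log2 difference of 0.19 ± 0.10 (SE) (exact permutation p = 0.2). Over the 6 libraries each of these ratios varied by 1.33-fold from lowest to highest, although the genes themselves spanned several-fold. The ratio of H2-DMb1 to H2-Ab1 was as even, at 0.323, 0.303 and 0.370 in the Aged libraries against 0.383, 0.387 and 0.323 in the mAdu libraries, with a log2 difference of -0.13 ± 0.12 (SE) (exact permutation p = 0.3).

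The invariant chain and H2-DMa stood higher relative to the chains at 18 months. The ratio of Cd74 to H2-Ab1 was 7.54, 10.1 and 9.82 in the Aged libraries against 7.08, 3.73 and 5.66 in the mAdu libraries, with a log2 difference of 0.77 ± 0.30. (SE) The ratio of Cd74 to the sum of the 3 chains was 2.54, 3.03 and 2.96 in the Aged libraries against 2.20, 1.36 and 1.87 in the mAdu libraries, a log2 difference of 0.68 ± 0.22. (SE) Cd74 thus made up 68.0%, 71.6% and 71.1% of the summed TPM of the 10 genes at 18 months and 64.7%, 52.9% and 61.4% at 8 months. The ratio of H2-DMa to H2-Ab1 was 0.227, 0.325 and 0.269 in the Aged libraries against 0.199, 0.145 and 0.161 in the mAdu libraries. Within DM, the ratio of H2-DMa to H2-DMb1 was 0.701, 1.07 and 0.725 in the Aged libraries against 0.519, 0.375 and 0.499 in the mAdu libraries, a log2 difference of 0.83 ± 0.25. (SE) H2-DMa thus lay below H2-DMb1 in 5 of the 6 libraries and just above it in the second 18-month library. In each of these 4 ratios the ages did not overlap.

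**Figure D2:**
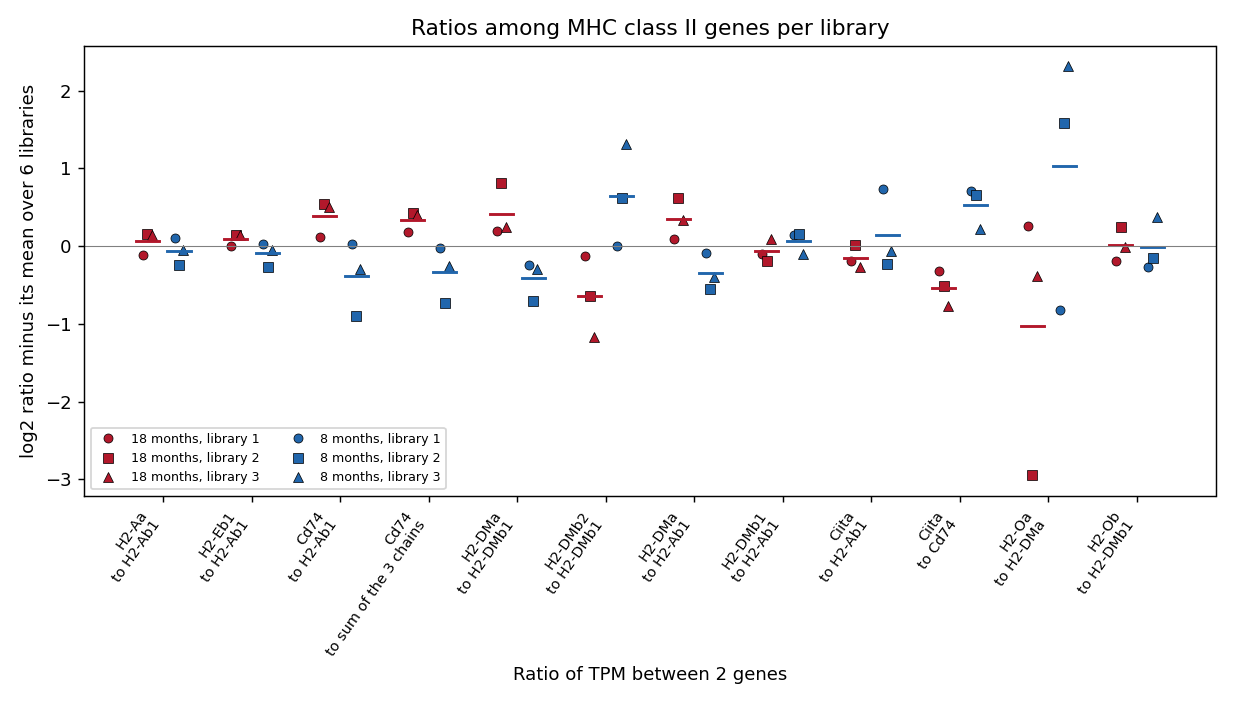
Log2 ratios of TPM between MHC class II genes, each minus its mean over the 6 libraries, 18-month libraries in red on the left and 8-month libraries in blue on the right. Points are libraries and bars are means of 3 libraries. The ratios of Cd74 to H2-Ab1 and to the 3 chains and of H2-DMa to H2-Ab1 and to H2-DMb1 lie higher at 18 months, those of H2-DMb2 to H2-DMb1 and of Ciita to Cd74 lie lower, and the other 6 overlap.

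A further pair of ratios ran the other way without overlap. In that of H2-DMb2 to H2-DMb1, H2-DMb2 had low values and the 2 genes share sequence. This ratio may therefore depend on how reads were shared out between them. The log2 difference of H2-DMb2 by itself was -0.07, beside 1.21 for H2-DMb1. The ratio of H2-DMb2 to H2-DMb1 was 0.00911, 0.00637 and 0.00441 in the Aged libraries against 0.0100, 0.0153 and 0.0248 in the mAdu libraries, a log2 difference of -1.30 ± 0.48. (SE) The ratio of Ciita to Cd74 was 0.00330, 0.00286 and 0.00241 in the Aged libraries against 0.00671, 0.00649 and 0.00479 in the mAdu libraries, a log2 difference of -1.07 ± 0.20. (SE) The level of the transactivator relative to the invariant chain was thus lower in each 18-month library. Relative to H2-Ab1, however, Ciita lay at 0.0248, 0.0288 and 0.0237 in the Aged libraries against 0.0475, 0.0242 and 0.0271 in the mAdu libraries, where the first 8-month library stood apart. Its log2 difference of -0.29 was 0.0031 without that library. For DO, the ratio of H2-Ob to H2-DMb1 was 0.0221, 0.0300 and 0.0251 in the Aged libraries against 0.0210, 0.0228 and 0.0328 in the mAdu libraries, a log2 difference of 0.03. The ratio of H2-Oa to H2-DMa spanned 38.3-fold over the 6 libraries, from 0.000352 in the second 18-month to 0.0135 in the third 8-month library.

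With 3 libraries against 3, the exact 2-sided permutation test cannot go below p = 0.1. The 6 of the 12 ratios that did not overlap each had this p, which is 0.2 after Benjamini-Hochberg adjustment over the 12. Among all pairs of tested genes above 0 in all libraries, 19.1% of ratios did not overlap between the ages. With H2-Ab1 alone as the denominator, 2 of the 6 ratios did not overlap, those of Cd74 and H2-DMa, against 89.9% of the ratios of other tested genes to H2-Ab1. Both were higher at 18 months, which held for 0.0877% of the tested genes other than H2-Ab1, or 11 of 12544, with Cd74 and H2-DMa counted among the 11.

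**Figure D3:**
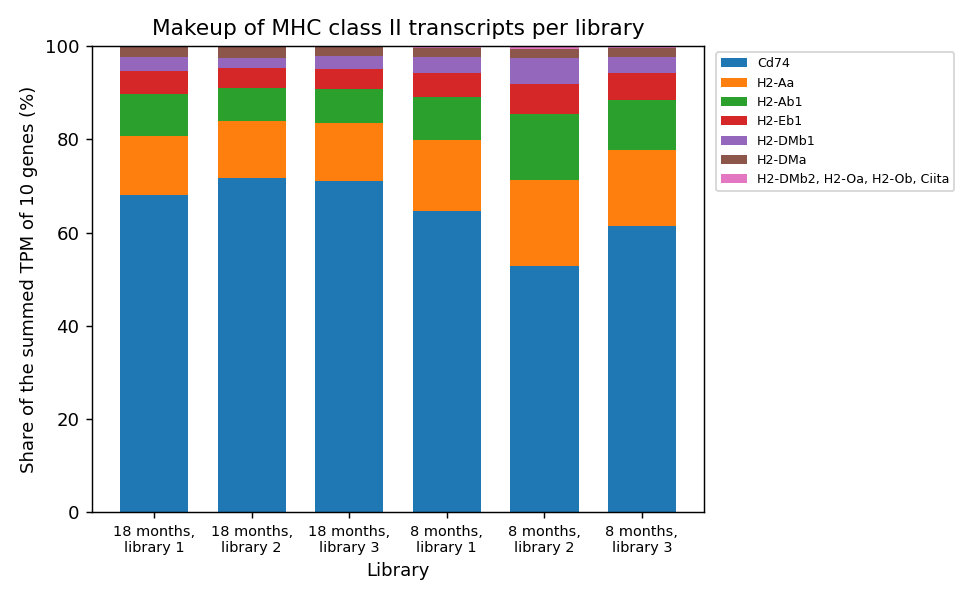
Share of each gene in the summed TPM of the 10 MHC class II genes, in percent, 1 bar per library, with 18-month libraries on the left and 8-month libraries on the right. Cd74 takes 68.0% to 71.6% of the sum at 18 months and 52.9% to 64.7% at 8 months.

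Of 8 listed genes of the RFX, NF-Y and CREB proteins, which bind the class II promoters, 0 passed by limma and 0 had an unadjusted p under 0.05, with a median log2 difference of -0.06. Rfx5, a subunit of the RFX complex, lay at 6.03, 4.49 and 4.13 TPM in the Aged libraries against 2.25, 3.26 and 4.73 TPM in the mAdu libraries, and the ages overlapped. Nfyc, a subunit of NF-Y, lay at 33.6, 26.9 and 36.2 TPM in the Aged libraries against 38.5, 33.2 and 37.0 TPM in the mAdu libraries. Of the interferon gamma pathway, 8 of 10 genes were tested and 0 passed. Ifngr2, a receptor chain, lay at 97.9, 66.4 and 84.1 TPM in the Aged libraries against 108, 119 and 101 TPM in the mAdu libraries. Ifng, the ligand, was listed at 0.0695, 0.0573 and 0 TPM at 18 months and at 0 in the 8-month libraries.

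Among the 9 genes that process or turn over class II complexes, 8 were tested, 0 passed and the median log2 difference was 0.0022. Ifi30, a lysosomal thiol reductase, lay at 12.0, 12.3 and 10.1 TPM in the Aged libraries against 8.78, 9.06 and 9.20 TPM in the mAdu libraries. It was the one gene of this list with an unadjusted p under 0.05 by limma, where 3.45% of all tested genes were higher. Sppl2a lay lower without overlap, at 43.2, 46.6 and 45.2 TPM in the Aged libraries against 49.1, 50.1 and 49.7 TPM in the mAdu libraries. Such a lower position without overlap held for 14.2% of all tested genes. Ctss, cathepsin S, which trims the invariant chain, lay at 51.5, 64.4 and 30.6 TPM in the Aged libraries against 13.5, 13.6 and 51.4 TPM in the mAdu libraries. The third 8-month library thus lay level with the 18-month libraries. Marchf1, which marks class II molecules for degradation with ubiquitin, lay at 1.37, 1.18 and 1.27 TPM in the Aged libraries against 0.684, 0.260 and 1.08 TPM in the mAdu libraries, with a mean too low for the test.

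Molecules that give T cells a second signal were mostly low. Of 13 listed genes, 6 were tested and 0 passed. Cd80 and Cd70 were listed at 0 in all libraries, and Cd86 lay at 0.519, 0.226 and 0.370 TPM in the Aged libraries against 0.0271, 0.126 and 0.992 TPM in the mAdu libraries. Cd40 was present, at 50.3, 68.4 and 63.3 TPM in the Aged libraries against 54.1, 45.0 and 46.0 TPM in the mAdu libraries, as was Cd274, the inhibitory ligand PD-L1, at 34.8, 81.4 and 46.9 TPM against 31.5, 32.9 and 37.1 TPM. In both genes the ages overlapped. The adhesion molecule gene Icam1 lay at 436, 412 and 440 TPM in the Aged libraries against 462, 554 and 538 TPM in the mAdu libraries, lower without overlap (limma adjusted p = 0.313). Of 5 genes for MIF, a cytokine that binds the invariant chain at the cell surface, and for its relatives and co-receptors, 5 were tested, 0 passed, and the median log2 difference was 0.03. Mif itself averaged 120 ± 23.3 TPM in the Aged and 109 ± 4 TPM in the mAdu libraries (SD, n = 3 each).

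The libraries held the markers of endothelium, and also those of other cells that express class II genes. The 10 endothelial markers summed to between 10905 and 11811 TPM at 18 months and between 12092 and 13543 TPM at 8 months. Of these, 0 passed by limma. In 4 of them, Kdr, Eng, Cdh5 and Cldn5, the 18-month libraries lay lower without overlap, against 14.2% of all tested genes. The 19 macrophage and monocyte markers summed to 1626, 1834 and 1044 TPM at 18 months and to 741, 793 and 1924 TPM at 8 months. Lyz2, a lysozyme gene of myeloid cells, took most of that sum, at 1287, 1235 and 614 TPM against 568, 619 and 1542 TPM. The sum, which thus rests largely on Lyz2, was highest in the third 8-month library, where the class II genes lay at 4928 TPM. Some other markers of this list were highest in the second 18-month library, as the class II sum was. Cd68, a lysosomal protein of macrophages, lay at 30.1, 35.6 and 20.9 TPM in the Aged libraries against 11.0, 12.7 and 29.0 TPM in the mAdu libraries. Fcer1g and Tyrobp, which encode signalling adaptors of myeloid receptors, and Adgre1, a macrophage surface receptor, had the same highest library. Their log2 differences between 18 and 8 months were 0.78 for Cd68, 0.90 for Fcer1g, 0.86 for Tyrobp and 0.66 for Adgre1, with the third 8-month library within the 18-month range in each (limma adjusted p from 0.392 to 0.494). Ptprc, Itgam, Mrc1, Marco, C1qb, Mertk and Siglecf were instead highest in the third 8-month library, like Lyz2. The log2 differences of Mertk and Siglecf were negative, at -0.24 and -0.14. Of the 14 tested macrophage and monocyte markers, 0 passed and the median log2 difference was 0.34. Chil3, a chitinase-like gene of alveolar macrophages, was the only marker of these 14 that did not overlap. Higher values without overlap were found in 4.48% of all tested genes. Chil3 lay at 140.5, 391 and 249 TPM in the Aged libraries against 26.7, 31.4 and 140.1 TPM in the mAdu libraries. Its lowest Aged and highest mAdu values were thus nearly level, so the ages were only just apart (limma adjusted p = 0.195). Csf1r was at or near 0 in 5 libraries and lay at 0.745 TPM in the first 18-month library.

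The 12 dendritic cell markers summed to between 86.0 and 102 TPM at 18 months and between 86.3 and 108 TPM at 8 months. Most of that was Zbtb46 and Clec9a, at 29.0 to 60.8 TPM at 18 months and 33.3 to 54.5 TPM at 8 months. Xcr1 and Flt3, which define dendritic cells more narrowly, lay between 0.307 and 1.16 TPM at 18 months and between 0.325 and 1.26 TPM at 8 months. Itgax lay at 3.69, 4.04 and 2.16 TPM in the Aged libraries against 0.769, 1.15 and 3.95 TPM in the mAdu libraries. It was highest in the second 18-month library, as the class II sum was, and the ages overlapped. The 4 tested markers of this list had a median log2 difference of 0.13. Their differences were -0.36 for Zbtb46, 0.66 for Itgax, 0.21 for Clec9a and 0.04 for Irf8. The 11 B cell markers in the table summed to between 12.9 and 19.8 TPM at 18 months and between 16.4 and 49.8 TPM at 8 months, and the 10 T and NK cell markers to between 17.3 and 24.2 TPM and between 11.9 and 36.4 TPM. The 9 alveolar type 2 markers summed to between 4332 and 7105 TPM at 18 months and between 5345 and 13093 TPM at 8 months. The third 8-month library was highest for each of these last 3 lists. The lymphatic endothelial markers summed to between 602 and 759 TPM at 18 months and between 917 and 1153 TPM at 8 months, mostly Lyve1, with the lymphatic factor Prox1 at 0.0104 to 0.0449 TPM and 0 to 0.179 TPM. Of the 5 tested, 2 lay lower without overlap, Lyve1 and Ccl21a, against 14.2% of all tested genes. Ccl21a lay at 1.66, 1.66 and 1.39 TPM in the Aged libraries against 3.67, 21.9 and 17.8 TPM in the mAdu libraries. Its log2 difference was -2.30 (limma adjusted p = 0.162). Of the tested dendritic cell, B cell, T and NK cell, alveolar type 2 and lymphatic markers, 0 passed by limma. The part of these cells in the class II values was not tested.

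**Figure D4:**
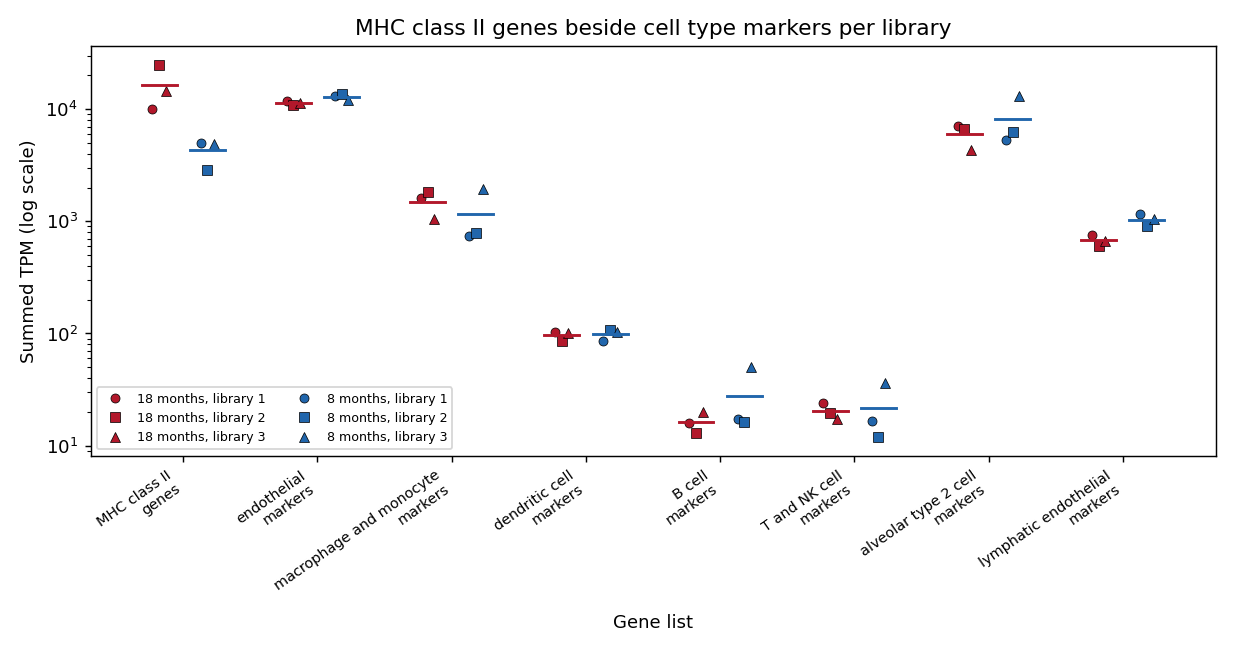
Summed TPM on a log scale of the 10 MHC class II genes and of 7 cell type marker lists, with 18-month libraries in red on the left and 8-month libraries in blue on the right. Points are libraries and bars are means of 3 libraries. The class II sum lies at 9951 to 25017 TPM at 18 months and 2898 to 5036 TPM at 8 months, the endothelial and lymphatic sums lie lower at 18 months without overlap, and the macrophage, dendritic, B, T and NK and alveolar type 2 sums overlap.

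Among the other 9505 tested genes that averaged 5 TPM or more, those whose log2(TPM + 1) followed the mean profile of the tested class II genes most closely over the 6 libraries were Nlrc5, Parp12, H2-Q7, Apol9b, Oas1a, Zbp1, H2-K1 and Gbp10. Their Pearson correlations with that profile lay between 0.975 and 0.995, a description over 6 libraries of 2 ages. Nlrc5, the transactivator of class I genes, lay at 28.1, 46.5 and 30.2 TPM in the Aged libraries against 19.7, 17.1 and 24.2 TPM in the mAdu libraries. Apol9b lay at 40.0, 66.8 and 42.6 TPM in the Aged libraries against 20.9, 18.1 and 28.4 TPM in the mAdu libraries. Gbp10, a guanylate-binding protein gene, averaged 16.9 ± 12.0 TPM in the Aged and 4.84 ± 1.75 TPM in the mAdu libraries (SD, n = 3 each). The choice by likeness fixes that these genes are high and low in the same libraries as the class II genes. Their means were 1.22-fold higher in Parp12 and 3.50-fold in Gbp10, with the other 6 between, and none passed (limma adjusted p from 0.145 to 0.380).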

How the data were processed

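RNA from sorted cells was isolated with the PicoPure kit and made into libraries from 10 ng with the SMARTer Ultra Low kit, and 100 bp paired-end reads were taken on the HiSeq platform, per the labels' protocols. The authors deposited TPM per Ensembl gene. Per the submitters' processing notes, kallisto and mm10 were used. The sources used here do not give its version, the transcript set or a strand setting, and the depth is unknown. Symbols and positions came from GENCODE M21 (GRCm38), which held 24298 of the 24520 identifiers.

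Differences were tested as log2(TPM + 1), which understates the change of low genes, in the 12748 genes that averaged 1 TPM or more, with limma 3.58.1 in R 4.3.3 (moderated test with intensity trend, age as sole term, 2-sided, Benjamini-Hochberg over these genes, threshold 0.05). Ratios used TPM without a pseudocount and SciPy 1.17.1. The limma test was tested on simulated data. Members and the 13 other lists were chosen with earlier results of these data known. All members, up to 4 genes per list by unadjusted p, and the 8 genes most like the members were to be named. Other list genes were named after their values were seen. Alternatives were pseudocounts, filters, scalings, no trend, library weights, a replicate block and each library left out.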

Additional observations from a re-analysis of the deposited data

How the results depend on the processing

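Of the 9 tested genes, the 8 that lay higher at 18 months kept that direction in all 16 alternatives, and the median log2 difference of the tested genes lay between 1.05 and 1.55. H2-DMb2 had no value at a mean of at least 5 TPM and turned positive with median-of-ratios scaling (0.0036), without the third 18-month library (0.12) and without the third 8-month library (0.19), and lay between -0.27 and 0.19 with 1 library left out, the cause of which was not tested. The number of these genes past the threshold was 0 in each alternative but library weights, where it was 5. The number of all genes past the threshold, 3, was 0 without a filter (where 2203 genes lay under 0.05 unadjusted), 16 with quantile normalization, 94 with library weights, 0 with the replicate block, and 0 to 2 with 1 library left out. At an unadjusted p under 0.05 by limma, 7 or 8 of the 9 tested class II genes were higher with any 1 library left out. Of all tested genes, between 334 of 12793 (without the first 8-month library) and 501 of 12718 (without the third 8-month library) were higher in these fits. Ciita was lost without the second 18-month, the second 8-month or the third 8-month library.

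The labels do not say whether replicate numbers pair the libraries. Deviations from the mean of each age correlated at -0.012, -0.090 and 0.057 between same-numbered libraries. Between differently numbered libraries they correlated at -0.069 to 0.083. Values this near 0 cannot exclude a weak pairing. With the replicate block, 422 genes were higher and 1023 lower at an unadjusted p under 0.05, against 440 and 1274 without it, and the 8 class II genes had adjusted p from 0.183 to 0.414. Of the ratios, that of Ciita to H2-Ab1 lay between -0.48 and 0.0031 with 1 library left out, and that of H2-Ob to H2-DMb1 between -0.10 and 0.22, and at -0.13 with a pseudocount of 1. The other 10 ratios kept their direction. The smallest p that 3 against 3 allow, and the unknown depth of H2-DMb2, H2-Oa and H2-Ob at a few TPM, limit what can be told.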
